A study of Mus musculus with 4 samples.

Results

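Clustered zinc finger protein genes are described here by their contacts in the nucleus, as Hi-C measured them. The members are the autosomal protein-coding genes named Zfp and a number whose bodies lie within 200 kb of another gene so named in the mm9 mouse genome, with Zfp42 left out. The name alone matched 336 autosomal gene entries. Of these, 199 entries with 197 symbols had such a neighbour, among 21418 autosomal protein-coding genes in all. They form 47 clusters on 14 chromosomes and overlap 197 of the 61816 autosomal bins of 40 kb. Chromosome 7 alone holds 14 clusters with 63 bins. The members just inside the distance limit were Zfp467 and Zfp775 on chromosome 6, at 167 kb from each other, and the matching genes just outside it were Zfp236 and Zfp516, at 218 kb from each other.

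Hi-C joins and sequences pieces of DNA that lay close together, so a read pair records a contact between the regions of its ends. The cells were male mouse embryonic stem cells (mESCs), either wild-type (WT) or knockout (KO) for Firre, and their chromatin was cut with HindIII. Firre is a long noncoding RNA gene on the X chromosome, and the KO allele was made in mice by recombination of loxP sites around the locus. Per the methods, the WT cells were the N3 line in 2i medium. The Firre KO cells were kept in 2i medium on irradiated feeder fibroblasts that were depleted before use, although 1 sentence of the study's results reads as if both were on feeders. The methods do not say that the KO cells came from N3, so genotype, cell line and culture cannot be told apart here.

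Each group had 2 libraries, which the methods call technical duplicates, and the deposited matrix of each group pools both. There is therefore 1 matrix per group, with no spread between replicates and no test of a difference. The 95% intervals given below cover counting error only, apart from those of boundary shares, which treat bins as independent. Intervals that lie apart compare these matrices and not the conditions. The matrices held 65611035 read pairs for WT and 46635652 for the other group, and the share of autosomal read pairs that joined different chromosomes was 15.7% in WT and 34.8% in the other. The targeted locus went against the label. The bin at X:47920001-47960000, which lies wholly inside Firre (6720401G13Rik in the annotation), held 1973 read pairs in WT and 2109 in the one labelled Firre KO, against medians of 540 and 614 over the kept bins of the X chromosome. For this reason the second matrix, labelled Firre KO, is called the KO-labelled matrix throughout, and every direction below is one between 2 labels.

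Zinc finger proteins of this class bind DNA through rows of C2H2 fingers, short folds that each hold a zinc ion and read a few bases. The fingers are joined by a linker that is conserved between proteins. Many of these proteins also carry a KRAB domain, which recruits the corepressor TRIM28 (KAP1) and through it the histone methyltransferase SETDB1 and HP1 proteins, and in embryonic stem cells this system silences endogenous retroviruses and keeps imprints. Their genes arose largely by tandem duplication and lie in clusters in mammalian genomes, and in several cell types such clusters carry the mark H3K9me3 along their own finger-coding exons. Neither transcription nor a histone mark was measured here.

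The coding sequences in the annotation matched the names. At least 1 C2H2 finger was encoded by 196 of the 199 members (98.5%), against 3.6% of all autosomal protein-coding genes, and the median was 11 fingers with a highest count of 33. The linker was found in 173 members (86.9%), against 2.15% of all genes, and the letters searched for a KRAB domain in 104 (52.3%), against 1.16%. The 3 stretches of 21 bases below are shown because clusters far apart in the genome have them in common. They were taken from the most widely shared coding words that encode part of the linker, with the codons of the linker residues in capitals. They are read 5′ to 3′ on the coding strand of mm9.

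Copy in Zfp454, chr11:50686829-50686849, minus strand: tcacACTGGAGAGAAACCTta

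Copy in Zfp458, chr13:67357223-67357243, minus strand: aattcatACAGGAGAGAAAcc

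Copy in Zfp935, chr13:62556010-62556030, minus strand: catACTGGAGAGAAGCCTtac

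The stretch shown from Zfp454 was present in the coding sequence of 18 members and of 9 other genes that encode a finger or a linker. The one from Zfp458 was present in 16 members and 22 such other genes, and the one from Zfp935 in 12 members and 2 such other genes. Reads cannot always be placed in repeated sequence, and contacts between clusters are therefore also given below for cluster pairs that share none of a sample of longer words, of 31 bases and at most 10 copies in the genome. Stretches as widely shared as those shown were not screened in this way. Of the 197 bins, 193 were kept in both matrices, and the cluster Zfp960 to Zfp97 on chromosome 17 had none.

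Chromatin divides into a gene-rich A and a gene-poor B compartment, and regions of like kind touch more often, also across chromosomes. The preference of a bin was measured as the log2 ratio of its contacts with A windows over those with B windows on other chromosomes, each taken over the number expected from the mean of the chromosome pair. The windows used were those with the same call, A or B, in both matrices, and member bins were left out of them. Across chromosomes the members preferred A in both matrices, and did so less in the KO-labelled matrix. Over all member bins pooled, the preference was 1.04 (1.01 to 1.07) in WT and 0.48 (0.46 to 0.51) in the KO-labelled matrix, a difference of -0.56 (-0.59 to -0.52). On the same chromosome, at distances over 2 Mb, the values were lower and the direction was alike, at 0.50 in WT and 0.10 in the other matrix, with a difference of -0.40. The same-chromosome value of the KO-labelled matrix was not firm. It was 0.15 with 400 kb windows, 0.14 without the 10% of bins with fewest read pairs and 0.12 with the WT windows for both, and it was 0.057 for clusters of at least 3 genes, 0.043 without chromosome 7, 0.039 with A and B set by eigenvector 1 of the contact correlations on every chromosome, 0.001 (-0.029 to 0.032) with eigenvector 1 and 400 kb windows, and -0.045 (-0.071 to -0.019) in read pairs without correction. In read pairs without correction the preference across chromosomes was 0.44 in WT and 0.038 (0.020 to 0.056) in the KO-labelled matrix. The share of read pairs between chromosomes differed between the matrices at the same time, and its part in this difference was not tested.

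Other gene-rich sequence did not fall by as much. The median preference of single member bins was 1.13 in WT, close to the 1.19 of gene-dense bins, which are 8349 bins that overlap at least 2 genes, with member bins left out. In the KO-labelled matrix it was 0.29 for member bins and 1.05 for gene-dense bins. Bins of clustered olfactory receptor genes (Olfr), a tandem family of similar layout that is mainly expressed in the nose, had medians of -0.39 and -0.97. The median Olfr bin overlapped 2 genes. Olfr bins with at least 2 genes were not left out of the gene-dense bins, so these parts overlap. All autosomal bins had medians of 0.23 and 0.14. The median change per bin was -0.50 for the members, -0.63 for Olfr bins, -0.06 for gene-dense bins and -0.15 for all bins. The preference was lower in the KO-labelled matrix in 148 of 193 member bins (76.7%), in 87.6% of Olfr bins, in 54.0% of gene-dense bins and in 57.9% of all bins. The fall was thus shared with the other clustered family, from a starting level that resembled gene-dense sequence.

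**Figure D1:**
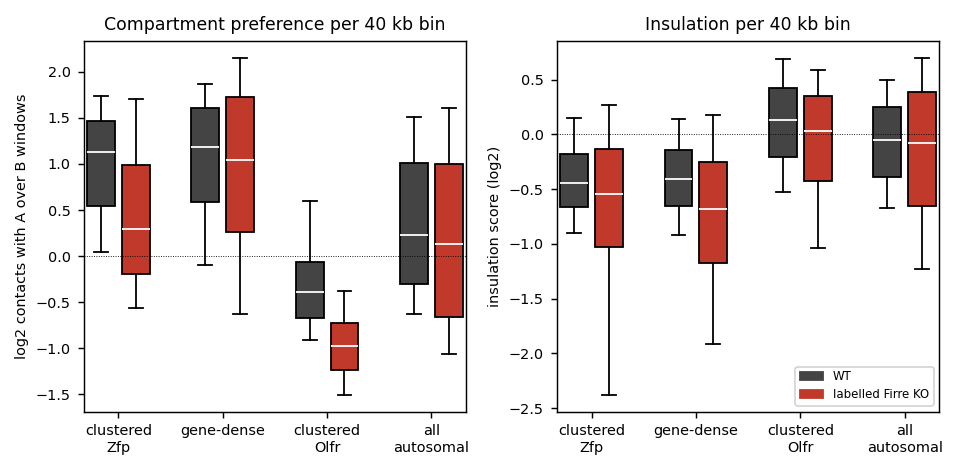
Compartment preference (left, log2 of contacts with A over B windows on other chromosomes) and insulation score (right, log2) per 40 kb bin, for clustered Zfp, gene-dense, clustered Olfr and all autosomal bins, with WT in grey and the KO-labelled matrix in red. Boxes span the quartiles with the median as a white line and whiskers reach the 10th and 90th percentiles; the Zfp median of preference lies at 1.13 and 0.29, and the gene-dense one at 1.19 and 1.05.

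Clusters differed widely from each other. Among the 46 clusters with kept bins the preference ran from -0.12 to 1.96 in WT, with a median of 1.21, and from -0.73 to 2.59 in the KO-labelled matrix, with a median of 0.31. It was lower in the KO-labelled matrix in 34 clusters and higher in 12. The share of clusters that were lower can be set beside the 57.9% of all single bins that were, although a cluster pools several bins.

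The 8 clusters with the most genes were to be described singly, and of those tied at 6 genes the one with the longer span, Zfp787 to Zfp28, was taken before Zfp628 to Zfp580, which had 0.81 in WT and 0.68 in the KO-labelled matrix. The cluster Zfp871 to Zfp563 on chromosome 17, with 8 genes at chr17:32908181-33243148, had 1.54 in WT and -0.17 in the KO-labelled matrix, the largest fall of all clusters. The most gene-rich cluster, Zfp712 to Zfp273 at chr13:67139530-67927937, has 19 entries and includes Zfp708, and it went from 1.42 to 0.15. In both clusters the contacts leaned to A in WT and lay near balance in the other matrix. A fall almost as large, chosen after the values were seen, was at Zfp936 to Zfp715 on chromosome 7, from 1.35 to -0.33.

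Other large clusters moved less. The cluster Zfp84 to Zfp146 on chromosome 7, with 14 genes, had 1.48 in WT and 1.21 in the KO-labelled matrix. The cluster Zfp677 to Zfp946 on chromosome 17, with 15 genes over 19 bins, was low in both, at 0.26 and -0.19. The cluster Zfp180 to Zfp575 on chromosome 7, with 12 genes, had 0.34 and -0.03, and Zfp787 to Zfp28 on the same chromosome, with 6 genes, had 0.50 and -0.02. Of the 8, only 2 were higher in the KO-labelled matrix. The cluster Zfp786 to Zfp746 on chromosome 6, with 7 genes, went from 1.19 to 1.33. The cluster Zfp553 to Zfp629 at the distal part of chromosome 7, with 8 genes, went from 1.96 to 2.59, the largest rise of all clusters.

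**Figure D2:**
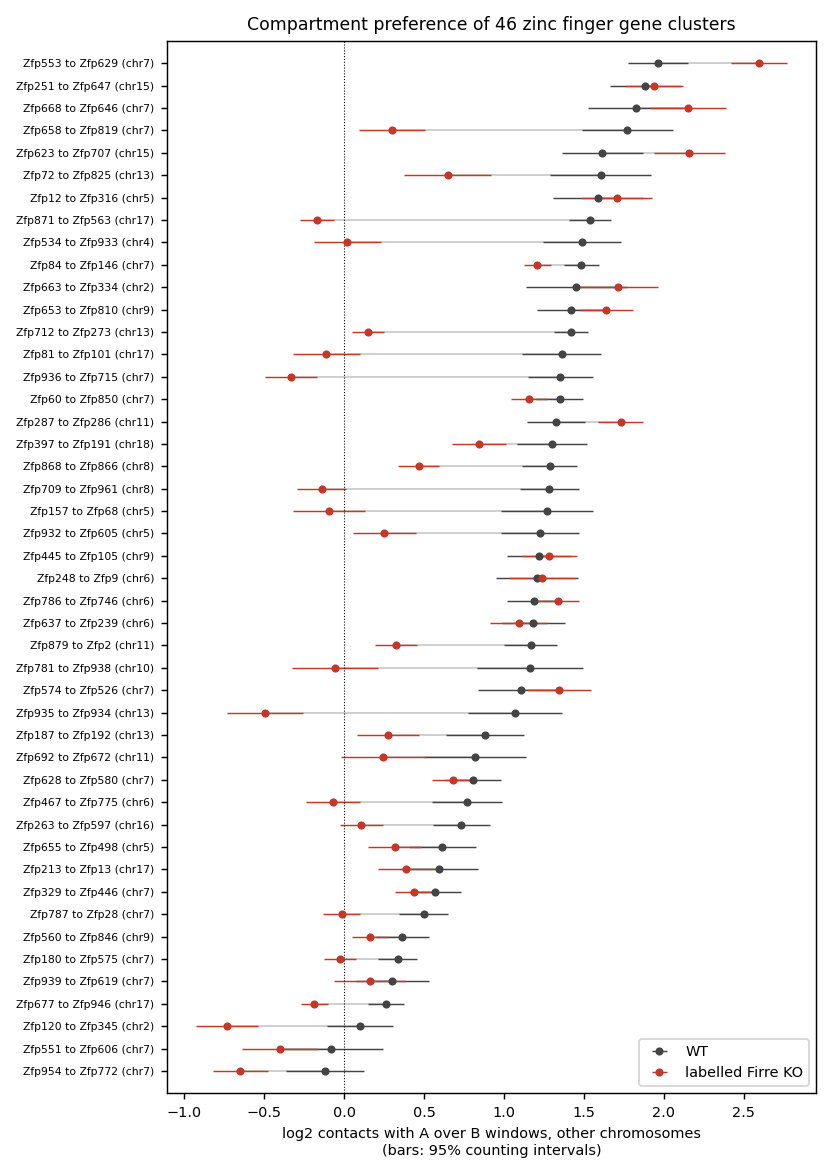
Compartment preference of each of the 46 clusters (horizontal axis, log2 of contacts with A over B windows on other chromosomes; each row a cluster, named by its outermost genes), with WT in grey and the KO-labelled matrix in red, and bars for 95% counting intervals. Of the clusters, 34 lie further left in the KO-labelled matrix and 12 further right, and rows that stand close together in WT spread widely in the other matrix.

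The clusters also differ in base composition, and the change went with it. Over the 46 clusters, the change of preference and the mean GC of the bins had Pearson's r of 0.56 and Spearman's rho of 0.56. This is given as a description, since the clusters were measured against largely the same A and B windows and all of them share both libraries. Over single bins r was 0.40 for the 193 member bins, 0.17 for gene-dense bins and -0.003 for all autosomal bins. Member bins had median changes of -0.61 below 40% GC (25 bins), -0.79 from 40% to 43%, -0.41 from 43% to 46% and -0.04 at 46% or more. Gene-dense bins of the same ranges, which include Olfr bins with at least 2 genes, had -0.38, -0.11, -0.11 and 0.07. The largest fall of members was thus not in the lowest range, and their median change lay below that of gene-dense bins in every range. Base composition and preference moved together here, and the part of GC in the change was not tested.

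**Figure D3:**
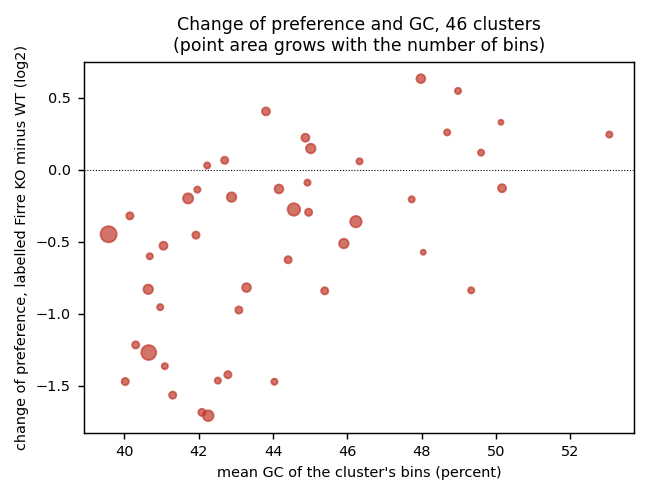
Change of compartment preference (vertical axis, KO-labelled matrix minus WT, log2) against the mean GC of the cluster's bins (horizontal axis, percent), 1 point per cluster, with the point area growing with the number of bins. The points rise from left to right with a Pearson's r of 0.56 over 46 clusters.

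Calls of compartment A or B were less steady than the preference. The score was taken from eigenvector 1 or 2 of the contact correlations of each chromosome in 200 kb windows, whichever followed gene count more closely. In WT, 147 of 192 scored member bins (76.6%) were in A, against 43.8% of all bins. In the KO-labelled matrix, 102 (53.1%) were in A, against 45.8% of all bins. Of the 147 member bins in A in WT, the sign changed to B in 49, and it changed from B to A in 4. Over all bins, 6572 of the 25744 in A in WT changed to B, and 7763 changed from B to A. In gene-dense bins these were 1105 of 6566 and 376, and in Olfr bins 46 of 72 and 0. These counts rest on the choice of eigenvector. With eigenvector 1 on every chromosome 43.2% were in A in the KO-labelled matrix, because chromosome 13 then counted 4 of its 23 bins in A and not all 23. With 400 kb windows both matrices gave 67.5%. In the KO-labelled matrix chromosome 7 then took eigenvector 2 and all 63 of its member bins fell in A, against 32 at 200 kb. In WT chromosome 7 went from 46 to 36 bins in A, chromosome 9 from 12 to 7 and chromosome 17 from 15 to 13. The preference across chromosomes remained lower in the KO-labelled matrix under these choices, at -0.56 with eigenvector 1, -0.54 with 400 kb windows and -0.55 with both.

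By chromosome, the 32 member bins of chromosome 17 had 15 in A in WT and 4 in the KO-labelled matrix, with median preferences of 0.71 and -0.17. Chromosome 7 had 46 and 32 of 63, with medians of 1.01 and 0.57. Chromosome 13 had all 23 bins in A in both, while its median preference was 1.42 in WT and 0.03 in the KO-labelled matrix, so the calls and the preference differed there. Chromosome 15, with only 4 bins, had all of them in A in both, and its median was 1.82 in WT and 2.07 in the other matrix. Chromosome 2, with 8 bins, had 2 in A in both, with medians of 0.19 and -0.62.

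Contacts between clusters on different chromosomes were compared with the mean of the same chromosome pair. The clusters touched more than this mean in both matrices, at 1.58 times the expected contacts (1.33 to 1.86) in WT and 1.66 times (1.45 to 1.90) in the KO-labelled matrix. With read pairs that were not corrected, and an expectation from bin totals, the WT value was 1.10 (0.95 to 1.28), an interval that includes 1, and that of the KO-labelled matrix 1.27 (1.13 to 1.42). The log2 ratio between the matrices was 0.07 (-0.23 to 0.38), so a difference was not detectable at this depth. These values rest on 184 and 290 read pairs over 911 cluster pairs, where 114 and 170 were expected. No single pair can be read, since 765 and 705 of the pairs had 0 read pairs and the largest expected number was 1.5 in WT and 1.93 in the other. Cluster pairs that shared no sampled word of 31 bases, among words of at most 10 copies, gave 1.53 (1.24 to 1.87) in WT and 1.65 (1.41 to 1.93) in the other matrix.

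Gene-dense bins set against each other gave 1.70 in WT and 1.57 in the KO-labelled matrix, so the value for the zinc finger clusters was not above that of gene-dense sequence in WT. Olfr clusters gave 1.03 and 1.63. Set against the bins in A in both matrices, without member bins, the zinc finger clusters had 1.69 times the expected contacts in WT and 1.35 times in the KO-labelled matrix. Against the bins in B in both they had 0.82 and 0.97. These values are the parts of the pooled preference given above and not a further result. The excess over A bins was smaller in the KO-labelled matrix, whereas contacts with B bins came closer to the mean.

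When the expectation was taken from bin pairs in the same pair of compartment score classes, with 10 classes of equal size, the excess in WT was 1.13 (0.96 to 1.34), an interval that includes 1, and 1.21 (1.02 to 1.42) with scores in 400 kb windows, which does not. In the KO-labelled matrix it was 1.59 (1.38 to 1.81), but 1.35 (1.18 to 1.55) with the WT scores. Read pairs without correction gave 1.27 (1.13 to 1.43) there, against 1.05 (0.91 to 1.21) in WT. The log2 ratio of the main setting was 0.48 (0.18 to 0.79). It was 0.26 (-0.05 to 0.56) when the WT scores were used for both matrices, 0.30 (-0.005 to 0.60) with 400 kb windows and 0.30 (-0.13 to 0.72) for clusters of at least 3 genes, and these 3 intervals include 0. Gene-dense pairs went from 1.13 to 1.28 and Olfr pairs from 1.18 to 1.43 on the same measure. The correlation of the compartment score with gene count was lower in the KO-labelled matrix on all autosomes, for example 0.54 and 0.42 on chromosome 7, and its part in this ratio was not tested.

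Single clusters were resolved only in sum over all partners. Zfp534 to Zfp933 on chromosome 4 had 3.41 times the expected contacts in WT and 2.89 in the KO-labelled matrix, and is named after its values were seen. It rests on 2 kept bins with 2.52 and 3.08 expected read pairs, and 58.3% of its sampled words were repeated in the genome. Zfp84 to Zfp146 on chromosome 7 had 2.19 and 1.74 times the expected contacts. All 4 of these intervals lay above 1, and no other cluster had this in both matrices. The interval lay above 1 in 9 clusters in WT and in 16 in the KO-labelled matrix. Of the 8 clusters with the most genes, only Zfp786 to Zfp746 had intervals that lay apart, with 0.49 (0.16 to 1.16) in WT and 2.47 (1.6 to 3.64) in the KO-labelled matrix. It had 6.51 and 10.6 expected read pairs. Nor did the intervals lie apart in any smaller cluster, and a single case among 46 clusters is not read as a result about that cluster. The largest cluster, Zfp712 to Zfp273, had 2.03 (1.32 to 2.98) and 1.49 (1.00 to 2.14), and Zfp677 to Zfp946 had 1.32 (0.82 to 2.03) and 1.67 (1.17 to 2.31). In these and the other large clusters the intervals of both matrices overlapped.

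Sums over all partners in 200 kb windows were at least 1.5 times expected in 53 of 91 member windows in WT, against 27.9% of all autosomal windows. In the KO-labelled matrix this was so for 55 of 91, against 21.7%. They were at least 1.5 times higher in the KO-labelled matrix in 28 of 91, against 29.3% of all windows, and at least 1.5 times lower in 20 of 91, against 25.7%. The shares of member windows that moved either way were near those of all windows.

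**Figure D4:**
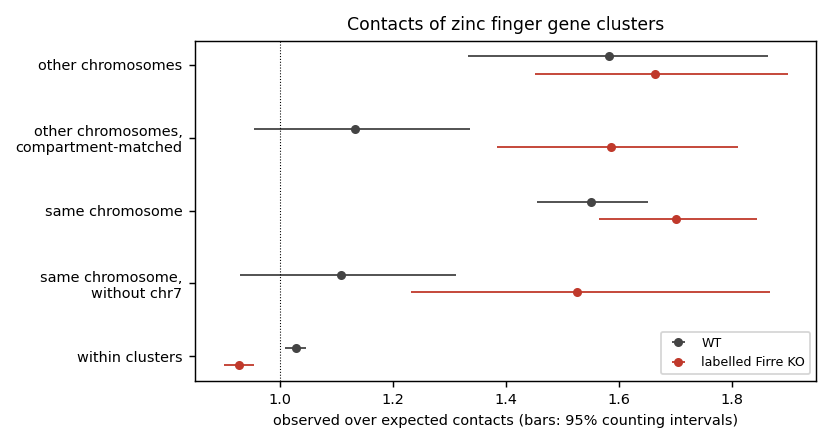
Observed over expected contacts (horizontal axis, 1 is the expectation) between zinc finger clusters on other chromosomes, the same with the expectation matched on compartment score, on the same chromosome at least 2 Mb apart, the same without chromosome 7, and within clusters, with WT in grey, the KO-labelled matrix in red and bars for 95% counting intervals. The intervals of both matrices overlap for other chromosomes (1.58 and 1.66) and for the same chromosome (1.55 and 1.70), and lie apart for the matched expectation (1.13 and 1.59) and within clusters (1.03 and 0.93). For both of the latter they overlapped in read pairs without correction. For the matched expectation they also overlapped with the WT scores, with scores in 400 kb windows and without chromosome 7. The same held there for clusters of at least 3 genes and for clusters over 10 Mb from chromosome ends.

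On the same chromosome, clusters at least 2 Mb apart were compared with what their chromosome showed on average at that distance. The 110 cluster pairs had 1.55 times the expected contacts (1.46 to 1.65) in WT and 1.70 times (1.57 to 1.85) in the KO-labelled matrix. They held 1292 and 735 read pairs, against 803 and 421 expected. The log2 ratio between the matrices was 0.13 (-0.015 to 0.28), which includes 0, but its interval lay above 0 in 5 of 11 alternatives, among them 0.46 (0.08 to 0.84) without chromosome 7 and 0.33 (0.20 to 0.46) in read pairs without correction. Chromosome 7 carried most of this excess. Its 84 pairs had 1.71 in WT and 1.76 in the KO-labelled matrix. Without chromosome 7, the other 26 pairs had 1.11 (0.93 to 1.31) in WT, an interval that includes 1, and 1.53 (1.23 to 1.87) in the other matrix. Matching the expectation on A and B as well as on distance gave 1.61 and 1.77 over all 110 pairs. Olfr cluster pairs had 1.39 and 1.87, and 1.12 and 1.41 with the matching.

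The pairs to be named were those with at least 20 expected read pairs in both matrices, and 3 pairs met this. The pair Zfp180 to Zfp575 and Zfp84 to Zfp146 on chromosome 7 had 81 and 42 read pairs, or 1.01 and 1.03 times expected. The pair Zfp180 to Zfp575 and Zfp60 to Zfp850 had 0.94 and 0.98, and the pair Zfp868 to Zfp866 and Zfp709 to Zfp961 on chromosome 8 had 0.69 and 0.96. The pairs with the most expected read pairs thus lay near or below the mean.

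The following were chosen after their values were seen. Zfp329 to Zfp446 and Zfp180 to Zfp575, 11.3 Mb apart, had 83 read pairs in WT, 3.25 times expected (2.50 to 4.15), and 34 in the KO-labelled matrix, 2.27 times (1.55 to 3.21). Zfp787 to Zfp28 and Zfp180 to Zfp575 had 66 and 27 read pairs, or 2.88 and 2.17 times expected. Zfp787 to Zfp28 and Zfp329 to Zfp446 had 63 and 34 read pairs, or 2.84 and 3.30 times expected. These clusters of the proximal part of chromosome 7 had preferences of 0.34 to 0.57 in WT, below the median of the clusters.

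**Figure D5:**
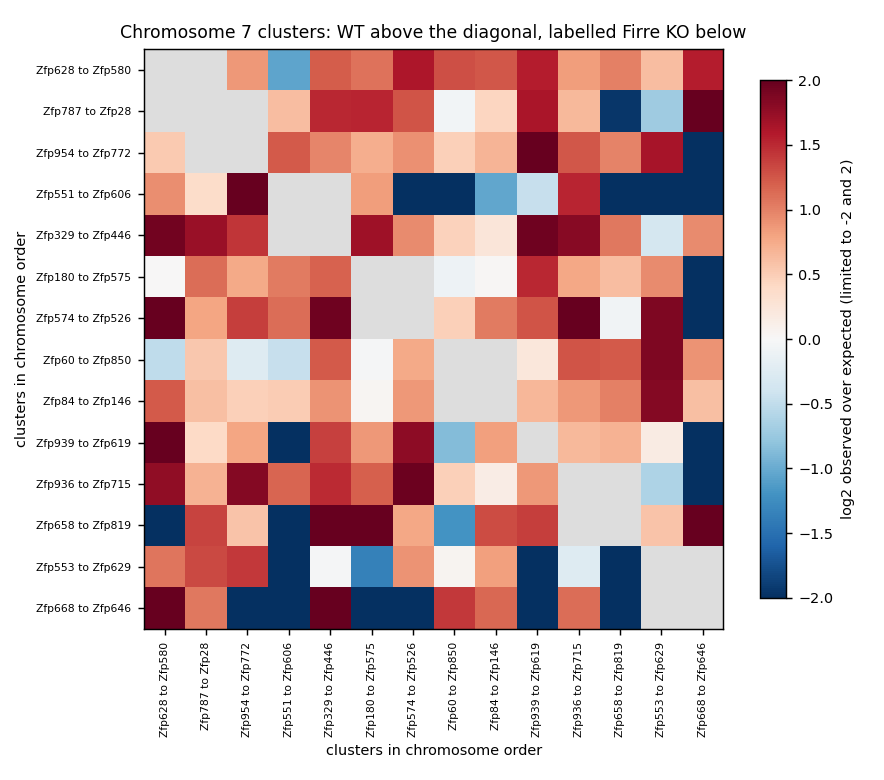
Contacts between the 14 clusters of chromosome 7, in chromosome order on both axes, as log2 of observed over expected at the same distance, with WT above the diagonal and the KO-labelled matrix below it. Grey cells are pairs closer than 2 Mb, the colour is limited to -2 and 2, and a pair with 0 read pairs is drawn at -2; many cells rest on few read pairs, and a cell with many is that of Zfp329 to Zfp446 and Zfp180 to Zfp575, with 83 in WT and 34 in the other matrix.

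Within clusters, bins at least 2 bins apart had 1.03 times the contacts of their chromosome at the same distance (1.01 to 1.05) in WT and 0.93 times (0.90 to 0.96) in the KO-labelled matrix. In read pairs without correction both values lay above 1, at 1.29 (1.27 to 1.31) and 1.26 (1.23 to 1.29), and the log2 ratio of -0.15 (-0.20 to -0.10) became -0.039 (-0.079 to 0.001), which includes 0. The WT value thus lay above 1 with and without the correction, while that of the KO-labelled matrix changed sides with it. They were not alike. The cluster Zfp712 to Zfp273 had 1.21 in WT and 1.11 in the KO-labelled matrix. The cluster Zfp677 to Zfp946 had 0.93 and 0.81, and Zfp787 to Zfp28 had 0.97 and 0.67. The cluster Zfp553 to Zfp629 went the other way, from 1.03 (0.90 to 1.17) to 1.31 (1.12 to 1.52).

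The insulation score is the log2 of the contacts that cross a bin, within a square of 480 kb, over the mean of the chromosome, so a low score marks a place that few contacts cross. Member bins had a median of -0.44 in WT and -0.54 in the KO-labelled matrix. Gene-dense bins had -0.41 and -0.68, Olfr bins 0.13 and 0.03, and all bins -0.05 and -0.08. With this square the medians of zinc finger clusters were near those of gene-dense sequence and below those of Olfr clusters. The member median depended on the square, at -0.15 in WT and -0.40 in the KO-labelled matrix with 240 kb, and at -0.84 and -0.78 with 960 kb, where the order of the 2 medians turned although the median change per bin was still negative, at -0.17. Gene-dense and Olfr bins were not compared at those sizes. A boundary, a local low of the score, was called in 8 of 191 member bins (4.19%) in WT, against 3.73% of all bins, and in 10 of 191 (5.24%) in the KO-labelled matrix, against 3.46%. Gene-dense bins had larger shares than member bins at this setting, at 6.32% in WT and 5.91% in the other. Both lie inside the member intervals given below, so this order was not resolved. Olfr bins had 3.15% and 2.05%. The intervals of the member shares, 2.14% to 8.05% in WT and 2.87% to 9.37% in the KO-labelled matrix, treat bins as independent. Neighbouring bins of a cluster are not, so the intervals do not test the shares against the background. In the KO-labelled matrix, 8.90% of member bins (5.63% to 13.8%) were boundaries with the plain mean of the square, against 3.73% of all bins. With a square of 240 kb these were 9.90% (6.43% to 14.9%), against 4.48%, and with 960 kb 3.21%, against 2.20%. Gene-dense bins were not compared under these settings.

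Among the 8 clusters with the most genes, the mean insulation score was lowest at Zfp786 to Zfp746, at -1.91 in WT and -3.78 in the KO-labelled matrix. Its bins held 2257 and 1638 read pairs on average, close to the medians of 2271 and 1620 over all member bins. These totals include read pairs between chromosomes, which the score does not use. Low scores lay further down in the KO-labelled matrix in general. The 10th percentile was -0.90 in WT and -2.38 in the KO-labelled matrix over member bins, -0.92 and -1.92 over gene-dense bins, and -0.68 and -1.23 over all bins. The part of sparse contacts in these low scores was not tested. A boundary was called within its span in the KO-labelled matrix and not in WT, but within 120 kb each matrix had 1. Zfp84 to Zfp146 had -0.58 and -0.97, with no boundary within its span in either matrix and 1 within 120 kb in each. Zfp871 to Zfp563, the cluster with the largest fall in preference, was the only one of the 8 with scores above 0, at 0.11 and 0.23.

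Members with a known target were followed by the bin that holds their start, as values with no test. Zfp809, which silences proviruses of murine leukaemia viruses, had a preference of 1.42 in WT and 1.73 in the KO-labelled matrix. Zfp568, a repressor of a placental transcript of Igf2, had 1.76 and 1.5. Zfp445, which keeps imprints, had 1.24 and 1.19. Each of these kept its contacts with A in both matrices. Zfp708, which binds a class of retrotransposons, had 1.71 and -0.05. Zfp932, which represses endogenous retroviruses, had 0.91 and -0.95. Zfp57, the other imprint keeper, is not a member because no other gene so named lies within 200 kb of it, and its bin had 0.92 and -0.01.

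Genes of this family without a neighbour of the same name within the limit can be set beside the members. By the bins of their starts, the 137 entries of that kind had a median preference of 1.25 in WT and 0.80 in the KO-labelled matrix. Of these, 90 of 137 were lower in the latter, against 57.9% of all bins. The 199 members had medians of 1.23 and 0.40, and 145 of the 196 with values were lower. Both kinds had nearly the same level in WT, and the median of the members was the lower of the pair in the KO-labelled matrix.

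The genes for the proteins that act with KRAB zinc finger proteins were taken from a list of 18, of which 17 were found. Their median preference was 1.5 in WT and 1.66 in the KO-labelled matrix, and 9 of the 17 were lower in the latter, against 57.9% of all bins. Trim28, the KRAB corepressor itself, had 0.71 and 0.42. Setdb1, the H3K9 methyltransferase, had 2.03 and 2.57. Smarcad1, a chromatin remodeller, had 0.89 and -1.01. These 3 were picked from the list after its values were seen, and Smarcad1 had the largest fall in it. The contacts of their 200 kb windows with the clusters were at least 1.5 times expected for 10 of 17 in both matrices, with the background shares given above for all windows, and were at least 1.5 times higher in the KO-labelled matrix for 3 and at least 1.5 times lower for 5.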

How the data were processed

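Hi-C was measured in 4 libraries, 2 labelled WT and 2 labelled Firre KO mESCs. Per the submitters' processing notes and the methods, the authors mapped reads to mm9, pooled both libraries of each group and used HiC-Pro 2.7.8 to build 40 kb matrices with iterative correction. What was deposited is a corrected contact signal between bins, scaled so that kept bins share 1 total. An entry equals whole read pairs times a weight for either bin. Both were recovered here, with 100% of entries within 0.05 of a whole number, and the read pairs gave the depth and the 95% counting intervals. Those of observed over expected contacts use a gamma approximation for weighted sums. Those of preferences, their differences and log2 ratios use a normal approximation. Shares of bins have Wilson intervals, which treat bins as independent. Reads carried no molecular identifiers, so the counting intervals cover counting error only.

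Genes came from the GENCODE annotation of mm9, with chromosome lengths checked against the bin tables. All measures used the 58938 autosomal bins kept in both matrices. Expected contacts were the mean of the chromosome pair, of the pair of compartment score classes, or of the distance on the chromosome. Insulation used a square of 480 kb, a delta span of 320 kb and smoothing of 160 kb, with boundaries at a strength above 0. Clusters are named by their outermost genes. The rule for named items took the 8 clusters with the most genes (ties by the longer span), up to 5 cluster pairs of each kind with at least 20 expected read pairs in both matrices, and members with known targets; other names are said to be chosen after their values were seen. The members, lists and measures were chosen with earlier results of these data known. Scripts were tested on simulated matrices. Python 3.11.15 with numpy 2.4.6, scipy 1.17.1 and pandas 2.3.3 was used. The alternatives changed the correction, distances, windows, eigenvectors and cluster sets.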

Additional observations from a re-analysis of the deposited data

How the results depend on the processing

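No paired analysis was possible because the libraries of a group were pooled in 1 matrix, and leaving out a replicate was impossible for the same reason. The genome used was not masked, so the planned version without repeats was replaced by cluster pairs without shared words, chosen after seeing the data, as were the choices of eigenvector, of WT windows for both matrices, of A and B matching and of leaving out chromosome 7 for the preference. No pair between chromosomes had enough expected read pairs for a median over pairs. Few read pairs limit contacts between chromosomes, and single clusters or pairs there cannot be ranked. For every move given here the cause was not tested.

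The lower A preference in the KO-labelled matrix kept its direction under all 9 alternatives, between -0.66 and -0.41 across chromosomes and between -0.51 and -0.36 on the same chromosome. Across chromosomes it was -0.41 in uncorrected read pairs and -0.66 without chromosome 7. On the same chromosome it was -0.36 with 400 kb windows, -0.51 with eigenvector 1 and -0.49 with both. The KO-labelled value across chromosomes was 0.038 in uncorrected read pairs. The WT value there was 0.44, 0.97 with the WT windows, 1.01 with clusters of at least 3 genes, with 400 kb windows and with eigenvector 1 at 400 kb, and 1.07 without the 10% of bins with fewest read pairs. On the same chromosome it was 0.33 in uncorrected read pairs, 0.42 without chromosome 7 and 0.54 with eigenvector 1, and the value of the KO-labelled matrix turned to -0.045 in uncorrected read pairs. The share of bins in A in that matrix was 67.5% with 400 kb windows, 43.2% with eigenvector 1, 37.7% with both and 34.9% in uncorrected read pairs, and in WT 67.5%, 67.5% with both and 67.7% in uncorrected read pairs.

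Contacts between clusters across chromosomes fell to 1.10 (0.95 to 1.28) in WT in uncorrected read pairs, so the excess was lost there. With the matched expectation, the KO-labelled value was 1.27 in uncorrected read pairs and 1.35 with the WT scores. On the same chromosome, WT had 1.66 for pairs at least 5 Mb apart, 1.37 over 10 Mb from chromosome ends, 1.93 in uncorrected read pairs and 1.11 without chromosome 7. The median over the 3 well measured pairs turned below 1, at 0.94 in WT and 0.98 in the other matrix. The log2 ratio was 0.33 in uncorrected read pairs and 0.46 without chromosome 7, and these intervals, like those for pairs at least 5 Mb apart, for letters after the number and without the 10% of bins with fewest read pairs, lay above 0. Within clusters, WT had 1.06 with neighbours within 100 kb and 1.29 in uncorrected read pairs, the log2 ratio was -0.20 and -0.039 (-0.079 to 0.001), and the KO-labelled matrix turned to 1.26 in uncorrected read pairs.

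The median insulation in WT was -0.41 for clusters of at least 3 genes, -0.30 with the plain mean, -0.49 in uncorrected read pairs, -0.15 with a square of 240 kb and -0.84 with 960 kb. In the KO-labelled matrix these were -0.47, -0.46, -0.86, -0.40 and -0.78, and the median changes were -0.080, -0.21, -0.23, -0.22 and -0.17. Boundaries took 9.90% of member bins in the KO-labelled matrix with 240 kb, against 4.48% of all bins, and 2.13% in WT with 960 kb, against 2.34%.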
